A study of Mus musculus with 8 samples.

Results

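Haematopoietic growth factor receptors carry the signals that decide which blood lineage a progenitor enters and whether it survives. The 9 receptor genes described here were Csf1r, Kit, Flt3, Csf3r, Csf2ra, Csf2rb, Il3ra, Il7r and Il2ra. They were found by gene name among the non-control probes of the array, and each is represented by its brightest probe. All 9 passed the filter on dim probes, among 18004 genes tested, and 12 of their 13 probes passed it. The arrays measured cytoplasmic RNA of bone marrow derived macrophages from mice of C57BL/6 x B6:129 Ola background. The groups were ERT2 Cre Thoc5 (flox/flox) cells with tamoxifen, the same cells without tamoxifen, ERT2 Cre control cells with tamoxifen, and control cells without it. They are called flox and control cells below. Each group had 2 arrays, 1 from each of 2 experiments, and each array paired a day 3 sample grown under CSF-1 with the untreated day 0 sample of its own genotype and experiment. Control cells carry the same tamoxifen-activated Cre as flox cells, so that tamoxifen can be compared with and without a Thoc5 allele to recombine. The promoter behind the Cre, the number of mice and any pooling are not given in the sources used here.

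CSF1R, KIT and FLT3 are related receptor tyrosine kinases. CSF1R binds the growth factor of these cultures, CSF-1, and marks the macrophage lineage, while KIT and FLT3 act on stem and progenitor cells. The other 6 genes encode cytokine receptor chains without a kinase of their own, and the receptors they belong to signal through JAK kinases and STAT factors. CSF3R binds G-CSF, the neutrophil growth factor. CSF2RA with CSF2RB binds GM-CSF, and IL3RA with the same beta chain binds IL-3. IL7R binds IL-7 together with the common gamma chain and TSLP together with CRLF2, and IL2RA raises the affinity of the IL-2 receptor. IL7R and IL2RA are best known from lymphocytes.

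Thoc5, the gene deleted in flox cells, encodes a subunit of the THO complex in mRNA export. Its log2 ratios of day 3 to day 0 were -3.04 and -3.02 in flox cells with tamoxifen, against -0.74 and -0.77 in flox cells without it. In control cells they were -0.21 and -0.15 with tamoxifen and -0.40 and -0.28 without. Without tamoxifen the ratio was thus lower in flox than in control cells, by a change that did not pass (-0.42 ± 0.10, limma adjusted p = 0.073). The share of probes well above background was 51.2% to 57.9% across channels, and 0 spots were saturated. Array pairs correlated at 0.92 in flox cells with tamoxifen, 0.93 in flox cells without it, 0.88 in control cells with tamoxifen and 0.78 in control cells without it. Experiment 2 ran with the dyes inverted, so experiment, dye direction and slide cannot be told apart. The macrophage markers were read beside the label, and all 11 were well above background in every condition. At day 3 their summed intensity was 1274560 to 1300050 in flox cells with tamoxifen, against 568774 to 882898 in flox cells at day 0. Against day 0, 9 were higher and 2 lower in flox cells with tamoxifen (58.9% of all genes called), and 6 higher and 0 lower without it (57.2%). The sum of 11 neutrophil markers was 781158 to 844775 in flox cells at day 0, so the day 0 samples were not macrophages alone by these markers.

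Tamoxifen moved 3 of the 9 receptors in flox cells. Il7r and Csf2ra rose and Il2ra fell, while the other 6 did not pass the test. The share called was 33.3% of the receptors, with 9.02% of all genes called in that comparison (1624 of 18002, 876 higher and 748 lower). In control cells tamoxifen changed 0 of 9 receptors at a limma adjusted p under 0.05, where 0% of all genes were called. At an unadjusted p under 0.05 there were 2 receptors, Csf2ra and Il2ra, and 995 of 18000 genes. The receptors' median change was -0.0033 in flox cells and -0.0020 in control cells, where the median over all genes tested was -0.0065 and 0.012.

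Il7r rose with tamoxifen in flox cells. At day 3 its log2 level was 13.34 and 13.60 in flox cells with tamoxifen, against 10.87 and 10.75 in flox cells without it. In control cells it was 11.50 and 11.73 with tamoxifen and 11.32 and 11.72 without. Day 0 levels were 12.67 and 12.45 in flox cells and 13.56 and 12.23 in control cells. Flox cells with tamoxifen thus stood above every other day 3 sample, and no other day 3 group reached them. The Il7r probe lies at chr15:9435976-9436035 on the minus strand of mm9. Its ratio of day 3 to day 0 was positive on both arrays of flox cells with tamoxifen, at 0.73 and 1.17, and negative on all 6 others, at -2.22 to -0.50. With tamoxifen it was 6.73-fold higher in flox cells (log2 change 2.75 ± 0.39 (SE), 95% interval 1.81 to 3.70, limma adjusted p = 0.0117), with 2.60 and 2.90 in the 2 experiments. In control cells the change was 0.07 ± 0.39 (interval -0.87 to 1.01, limma adjusted p = 0.9997), with 0.13 and 0.014. The Il7r call in flox cells missed the threshold without array 1 of flox cells with tamoxifen (2.40, limma adjusted p = 0.0704), without array 2 (3.102, 0.0514) and without array 2 of flox cells without tamoxifen (2.20, 0.0648). It also missed it with no replicate block (2.75, limma adjusted p = 0.0768).

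Il2ra went the other way. Its day 3 log2 level was 6.67 and 6.81 in flox cells with tamoxifen, not well above background on either array, against 9.06 and 8.80 in flox cells without it. Control cells had 8.88 and 9.16 with tamoxifen and 9.89 and 10.68 without. Day 0 levels were 7.09 and 7.37 in flox cells and 7.17 and 7.76 in control cells. The Il2ra probe lies at chr2:11614744-11614803 on the plus strand of mm9. With tamoxifen Il2ra was at least 4.09-fold lower in flox cells, a bound set by the dimmest probe well above background (log2 change -2.27 ± 0.14 before the bound, limma adjusted p = 0.0017, and -2.38 and -2.16 in the experiments). In control cells the change with tamoxifen was -1.11 ± 0.14, with -0.99 and -1.23, and both treated samples lay below both untreated ones. That change ranked 10 of 18000 genes by p but did not pass (limma adjusted p = 0.247).

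Csf2ra, the GM-CSF binding chain, moved less. Its day 3 log2 level was 16.31 and 16.38 in flox cells with tamoxifen, against 15.72 and 15.85 in flox cells without it. In control cells it was 15.86 and 15.91 with tamoxifen and 15.57 and 15.55 without, and at day 0 it was 16.45 to 16.54 in all 4 RNA samples. In both genotypes the treated samples lay above the untreated ones. The change with tamoxifen was 0.66 ± 0.10 in flox cells (1.59-fold, limma adjusted p = 0.0156) and 0.39 ± 0.10 in control cells (limma adjusted p = 0.635). The Csf2ra call in flox cells was lost without any 1 of its 4 arrays (changes of 0.61 to 0.72, limma adjusted p = 0.0755 to 0.121) and with median centring in place of loess (0.60, limma adjusted p = 0.12).

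**Figure D1:**
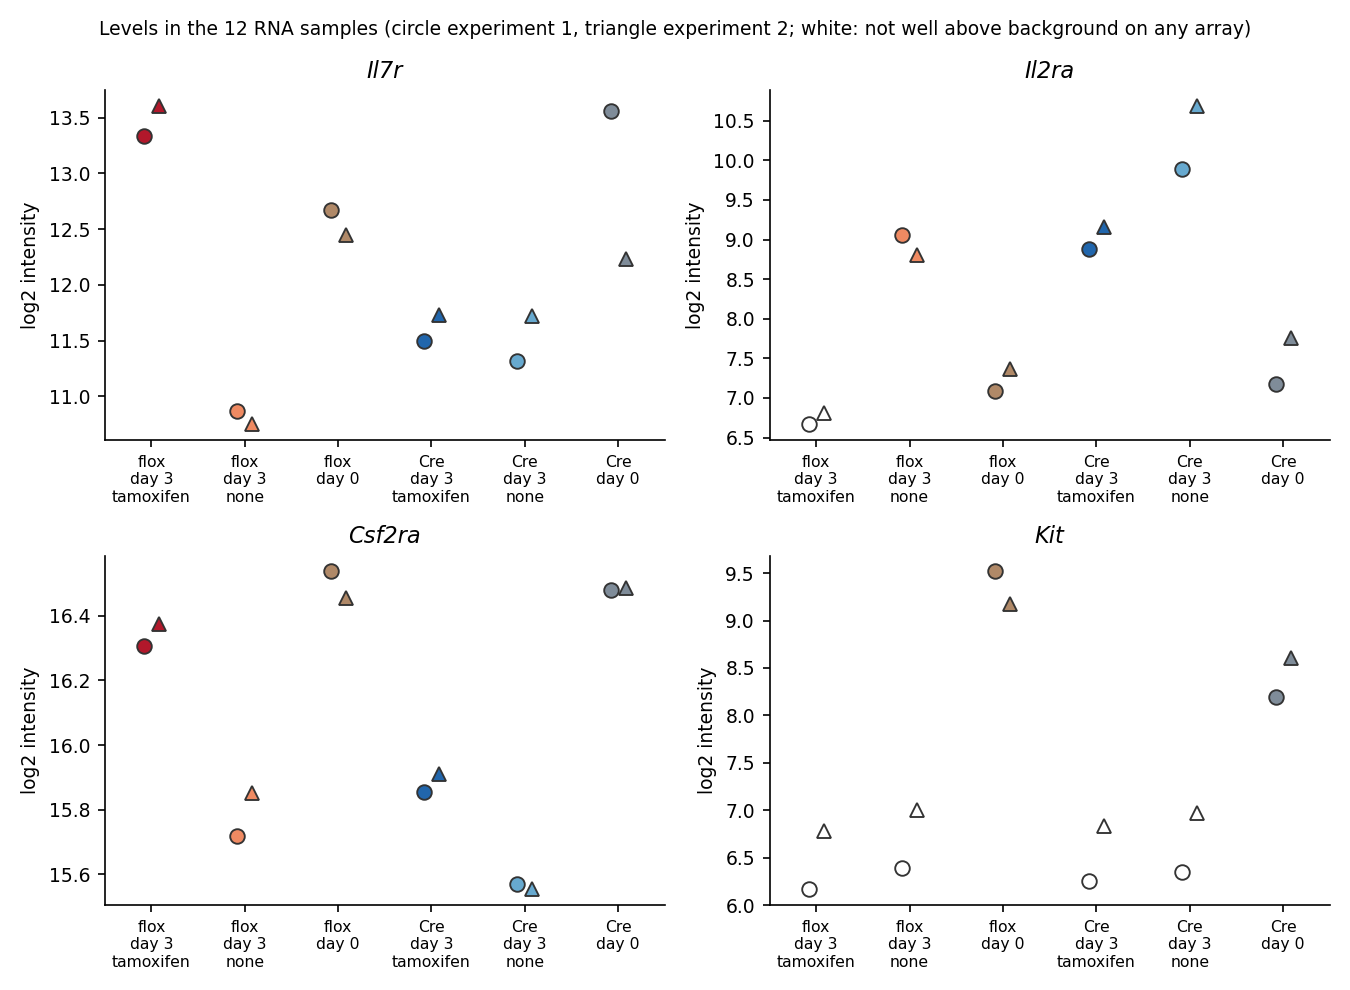
Log2 intensity of Il7r, Il2ra, Csf2ra and Kit in the 12 RNA samples after normalization (vertical axis, a scale of its own in each panel), with flox cells on the left and control cells on the right, and circles for experiment 1 and triangles for experiment 2. White symbols mark conditions in which no array was well above background. Il7r of flox cells with tamoxifen stood at 13.34 and 13.60, and Il2ra of the same cells lay at 6.67 and 6.81.

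Whether the tamoxifen change differed between genotypes was tested as a contrast of its own. It called 0 of 9 receptors, and 1.14% of all genes. For Il7r the difference was 2.68 ± 0.56 (interval 1.35 to 4.02, limma adjusted p = 0.0855), with 2.48 and 2.89 in the experiments. For Il2ra, which was not well above background in flox cells with tamoxifen, the measured values gave a difference of -1.16 ± 0.20 (limma adjusted p = 0.0572), whose size is not settled. It passed in 6 of 19 alternatives, 1 of them without array 2 of control cells without tamoxifen (-1.33, limma adjusted p = 0.049), and ranged from -3.03 to -0.93 over the 19 (limma adjusted p = 0.0153 to 0.263). Both receptors were the 2 at an unadjusted p under 0.05. With the day 3 channel alone, in place of the ratio, the Il7r difference was 2.57 (limma adjusted p = 0.00628; over its alternatives 1.17e-10 to 0.393). For Csf2ra the difference was 0.28 ± 0.15 (interval -0.08 to 0.63, limma adjusted p = 0.45).

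The other 6 receptors did not pass with tamoxifen in flox cells. Csf1r stood at 0.01 ± 0.10 (95% interval -0.23 to 0.25), Csf2rb at -0.0072 ± 0.13 (-0.33 to 0.31) and Csf3r at -0.0033 ± 0.17 (-0.42 to 0.41). Il3ra stood at 0.30 ± 0.14 (-0.04 to 0.65) and Flt3 at -0.24 ± 0.17 (-0.64 to 0.16). Kit stood at -0.20 ± 0.23 (-0.76 to 0.37), with neither group well above background at day 3.

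**Figure D2:**
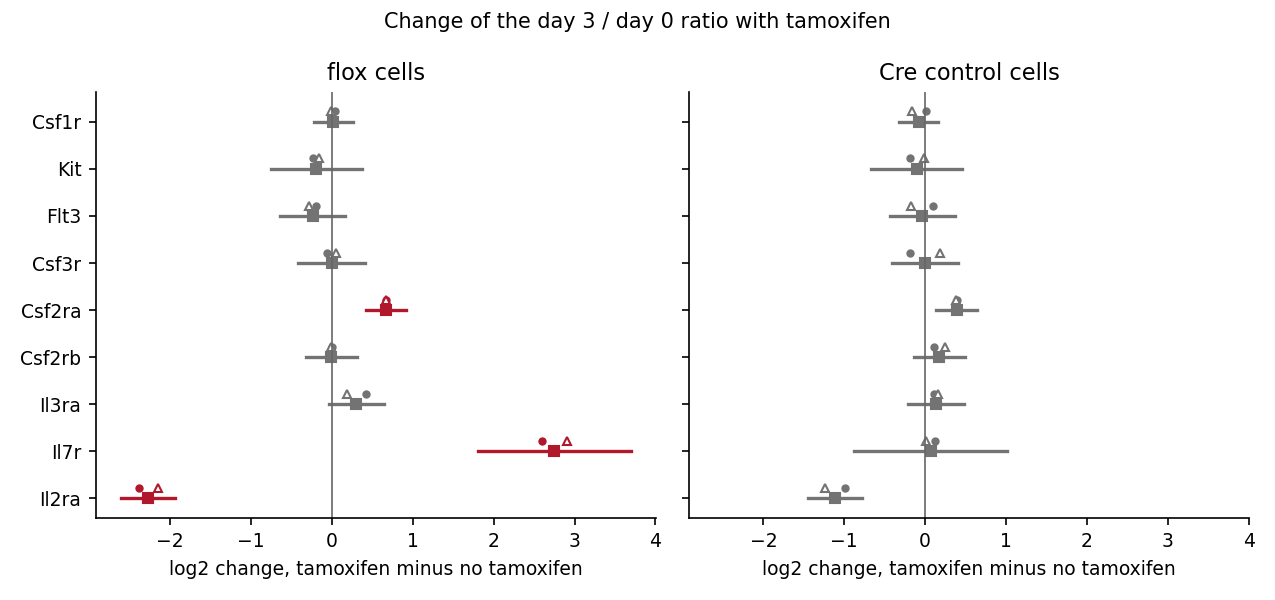
Change of the log2 ratio of day 3 to day 0 with tamoxifen (horizontal axis) for the 9 receptors, in flox cells on the left and control cells on the right. Squares are fitted changes with 95% intervals, circles and open triangles the values of experiments 1 and 2, and red marks a limma adjusted p under 0.05. Il7r and Csf2ra in flox cells lay at 2.75 and 0.66 and Il2ra at -2.27, while no receptor passed in control cells.

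Since these are bulk samples, fewer cells of a type and less RNA per cell cannot be told apart, and less RNA in the cell cannot be told apart from less export to the cytoplasm. Lymphoid markers were read beside Il7r and Il2ra. All marker counts in this paragraph stand beside the 9.02% of all genes called with tamoxifen in flox cells. Of the T, NK and innate lymphoid list 7 of 12 genes were measured, 0 of them changed with tamoxifen in flox cells (2 at an unadjusted p under 0.05), and their summed intensity at day 3 was 3690 to 3740 with tamoxifen, against 2996 to 3372 without. Of the B lineage list 7 of 11 were measured, 0 rose and 1 fell, Cd79b (-1.09 ± 0.11), and the sum was 4022 to 4955, against 8604 to 9444. At day 3 in flox cells with tamoxifen 3 of the 7 T and NK markers and 2 of the 7 B markers were well above background on both arrays. Of 11 macrophage markers 2 rose, among them Cd68 (0.99 ± 0.22), 2 fell, Fcgr1 (-0.86 ± 0.11) and Itgam (-0.86 ± 0.15), and 7 did not pass. Of 4 monocyte markers measured 0 rose and 2 fell, F13a1 (-1.70 ± 0.15) and Ccr2 (-1.64 ± 0.14), and their summed intensity at day 3 was 6153 to 9525 with tamoxifen, against 7505 to 11787 without. Of 5 osteoclast markers 2 rose, Ctsk (2.05 ± 0.22) and Dcstamp (1.22 ± 0.18), and 1 fell, Acp5 (-1.44 ± 0.13), with a sum of 46508 to 60644 with tamoxifen, against 74591 to 90930 without. The part of these cell types in the Il7r and Il2ra values was not tested.

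Promoters of the 3 receptors that moved with tamoxifen are shown because 2 rose and 1 fell. They are the 250 bases before the annotated start (RefSeq, GRCm38.p6), 5′ to 3′ on the strand of the gene, and 7 of the 9 receptors had an entry. Capitals mark letters matched on either strand, without overlap, by the STAT motif TTCNNNGAA or the C/EBP motif TTNCNNAA. Il7r covers chr15:9529877-9530126 on the minus strand, Csf2ra chr19:61228419-61228668 on the minus strand and Il2ra chr2:11642542-11642791 on the plus strand.
Il7r: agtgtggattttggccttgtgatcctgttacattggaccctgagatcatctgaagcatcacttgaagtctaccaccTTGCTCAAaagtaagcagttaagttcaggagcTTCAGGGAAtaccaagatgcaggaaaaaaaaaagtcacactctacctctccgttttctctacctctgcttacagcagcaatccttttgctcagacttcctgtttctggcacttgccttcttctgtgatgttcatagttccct
Csf2ra: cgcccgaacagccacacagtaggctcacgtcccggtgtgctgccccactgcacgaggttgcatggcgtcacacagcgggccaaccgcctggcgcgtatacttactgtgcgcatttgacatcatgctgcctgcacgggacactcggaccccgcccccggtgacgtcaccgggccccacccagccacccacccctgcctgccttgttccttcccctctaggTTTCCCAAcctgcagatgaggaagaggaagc
Il2ra: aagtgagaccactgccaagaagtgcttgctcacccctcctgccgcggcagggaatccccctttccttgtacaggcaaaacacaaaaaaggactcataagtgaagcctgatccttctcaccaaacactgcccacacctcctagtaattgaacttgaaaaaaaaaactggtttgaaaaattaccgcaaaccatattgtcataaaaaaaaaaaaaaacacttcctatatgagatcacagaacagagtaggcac
The Il7r window held 1 STAT match, 142 bases before the start, and 1 C/EBP match, 174 bases before it. The Csf2ra window held 1 C/EBP match, 31 bases before its start, and the Il2ra window held neither. The STAT motif was in 7.02% and the C/EBP motif in 36.8% of 32851 RefSeq promoter windows of this length. None of the 3 windows held the AP-1 motif TGANTCA, the PU.1 motif GAGGAAGT or the FOXO motif GTAAACA, which 6.75%, 2.44% and 3.17% of promoters held.

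Day 3 against day 0 describes how the receptors changed as the cultures grew under CSF-1. In flox cells with tamoxifen 2 receptors rose and 5 fell (58.9% of all genes called), and in flox cells without it 2 rose and 6 fell (57.2% called). Both counts of falls include Csf1r by its brightest probe (-0.21 and -0.22), while its other probes gave positive changes, so its direction is not settled. In control cells 3 rose and 5 fell, both with tamoxifen (57.7% called) and without it (57.3% called). Most genes passed in each of these comparisons, and the share of receptors called, 77.8% to 88.9%, is read against that. The receptors' median ratio was -0.21 in flox cells with tamoxifen, -0.76 in flox cells without it, -0.41 in control cells with tamoxifen and -0.37 in control cells without. Over all genes it lay between -0.06 and -0.05.

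**Figure D3:**
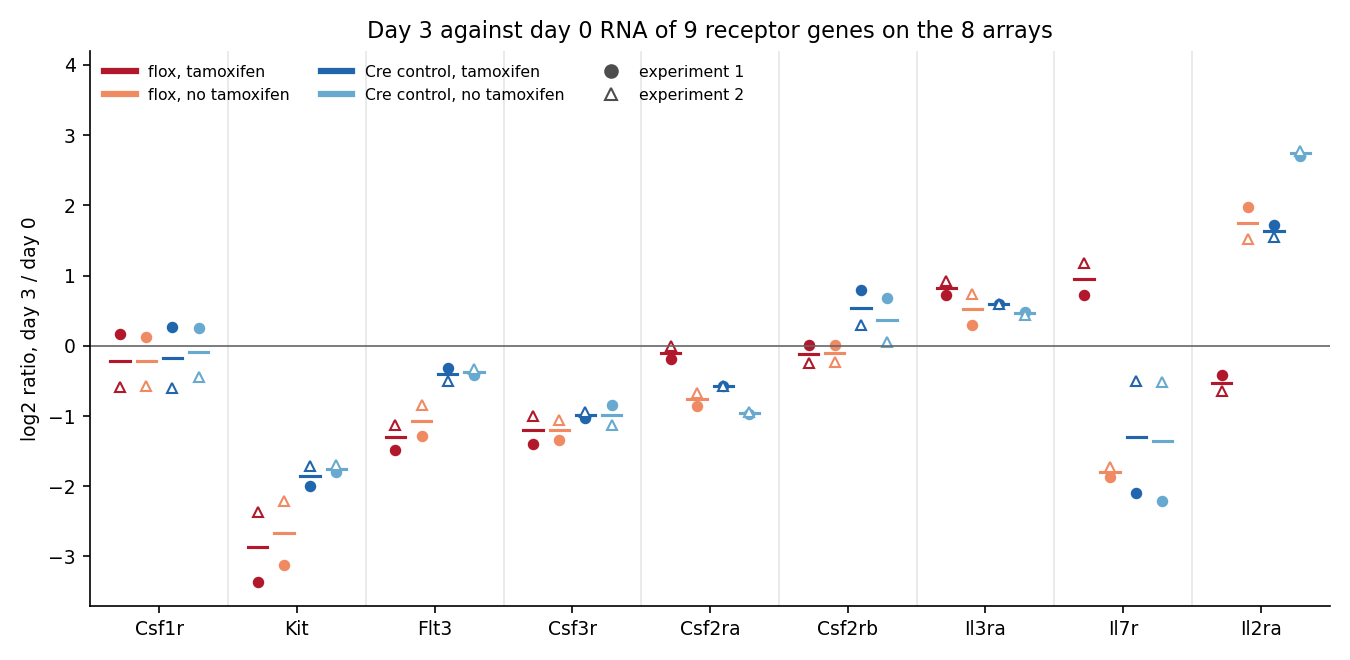
Log2 ratio of day 3 to day 0 RNA of the 9 receptors on the 8 arrays (vertical axis), with filled circles for experiment 1, open triangles for experiment 2 and a short line at the mean of each pair. Kit, Flt3 and Csf3r lay below 0 on all 8 arrays and Il3ra above 0 on all 8, while Il7r and Il2ra of flox cells with tamoxifen lay on the other side of 0 from the other groups.

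Kit and Flt3, the 2 receptors of stem and progenitor cells, were lower at day 3 in every group. Kit, the receptor of stem cell factor, was well above background on all 8 arrays at day 0 and on none at day 3. Its log2 ratios were -3.36 and -2.37 in flox cells with tamoxifen, -3.12 and -2.21 in flox cells without it, -1.99 and -1.71 in control cells with tamoxifen and -1.80 and -1.69 in control cells without. As a bound, Kit was at least 5.51-fold lower at day 3 in flox cells with tamoxifen and at least 6.29-fold lower in those without, and at least 2.85-fold and 2.74-fold lower in control cells with and without tamoxifen (limma adjusted p = 5.44e-05, 8.35e-05, 0.000247 and 0.000302). Flt3, the FLT3 ligand receptor, had ratios of -1.49 and -1.12 in flox cells with tamoxifen, -1.29 and -0.84 in flox cells without it, -0.31 and -0.50 in control cells with tamoxifen and -0.42 and -0.33 in control cells without. The Flt3 ratios were lower on flox than on control arrays, while its day 3 levels overlapped between the genotypes (6.97 to 7.38 and 7.19 to 7.43). How many of all genes separate the genotypes by their ratios was not counted. The Kit ratios give only bounds on its fall. In control cells the Flt3 calls were lost without array 2 with tamoxifen (-0.16, limma adjusted p = 0.419), and without array 1 (-0.43, 0.106) or array 2 (-0.31, 0.224) without tamoxifen. At day 3 Flt3 was well above background on 1 of 2 arrays of flox cells with tamoxifen and on both arrays of each other group. A second Flt3 probe was not well above background in any channel.

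Kit was higher in flox cells at day 0. The Kit level there was 9.52 and 9.17 in flox cells, against 8.19 and 8.60 in control cells, a difference of 0.95 ± 0.16 (limma adjusted p = 0.0406), and 0 receptors were lower. That was 1 of 9 receptors, with 1.14% of all genes called at day 0. Without experiment 1 of either genotype the day 0 difference of Kit was 0.57 (limma adjusted p = 0.295). Flt3 stood at 8.48 and 8.24 in flox cells, against 7.57 and 7.79 in control cells, a difference of 0.68 ± 0.12 that did not pass (limma adjusted p = 0.0529). At day 3 the Kit levels were 6.16 to 6.997 in flox cells and 6.25 to 6.97 in control cells, and the Flt3 levels were 6.97 to 7.38 in flox cells and 7.19 to 7.43 in control cells. Markers of several cell types were also higher there. Of 11 neutrophil markers 6 were higher in flox cells at day 0, such as Prtn3 (1.89 ± 0.16) and Camp (1.40 ± 0.11), and 0 lower. Their summed intensity at day 0 was 781158 to 844775 in flox cells, against 492816 to 583994 in control cells. Of 5 mast cell and basophil markers 2 were higher, Mcpt8 (1.49 ± 0.15) and Prss34 (0.91 ± 0.12), and of 6 progenitor markers 1, Cd34 (0.71 ± 0.12). Their summed intensities at day 0 were 3137 to 3896 for mast cells and basophils in flox cells, against 1462 to 2487 in control cells, and 9639 to 11777 for progenitors in flox cells, against 6588 to 6876 in control cells. Monocyte markers summed to 43391 to 45152 in flox cells, against 34677 to 35271 in control cells. Stromal markers summed to 19071 to 24216, against 10526 to 13741. The sums of erythroid and megakaryocyte markers and of T, NK and innate lymphoid markers were also higher in flox cells. Those of macrophage, B lineage, dendritic and osteoclast markers overlapped between the genotypes. The part of these cell types in the Kit and Flt3 values was not tested.

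Csf3r, the G-CSF receptor gene, had log2 ratios of -1.40 and -0.997 in flox cells with tamoxifen and -1.34 and -1.05 in flox cells without it. In control cells they were -1.03 and -0.94 with tamoxifen and -0.84 and -1.12 without. All 4 groups were lower at day 3 (limma adjusted p = 0.000342, 0.000392, 0.000807 and 0.000833), by 1.97-fold to 2.29-fold. The neutrophil markers fell further: 11 of 11 were lower in both flox groups and 10 of 11 in both control groups. In these comparisons 57.2% to 58.9% of all genes were called in either direction. Their median was -3.69 in flox cells with tamoxifen, -3.72 in flox cells without it, and -3.44 and -3.48 in control cells with and without it. Csf3r has 1 probe on the array, at chr4:125721478-125721537 of mm9, and its sequence is not particular to the gene. It shares a run of at least 15 bases with probes of 10 other genes, where the other 12 probes of the receptors share one with 0 or 1. The longest run, 30 bases, is identical in the probe of Gm13241. The sequences are shown because they bear on what this probe reads, and capitals mark the run of 20 bases that Csf3r and Gm1305 share, or the whole 30 bases of Gm13241 that are also in Csf3r.
Csf3r: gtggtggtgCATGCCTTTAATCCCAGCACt
Gm1305: gatggcaCATGCCTTTAATCCCAGCACgtg
Gm13241: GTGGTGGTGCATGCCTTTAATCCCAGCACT
These stretches cover chr4:125721508-125721537 on the plus strand for Csf3r, chr1:181625544-181625573 on the minus strand for Gm1305 and chr4:145718198-145718227 on the minus strand for Gm13241, all in mm9. Letters of this kind begin the B1 family of short interspersed repeats, which lie in many mouse transcripts. Over the 12 RNA samples the Csf3r level correlated at r = 0.99 with Gm13241, 0.96 with Gm1305 and 0.99 with Slc10a1, whose probe shares 18 bases. The ratios of Gm13241 were -1.70 and -1.10 in flox cells with tamoxifen and -1.25 and -1.13 in control cells without it. Those of Csf3r were -1.40 and -0.997, and -0.84 and -1.12, so the probes lay closer in experiment 2 than in experiment 1. How much of the Csf3r signal came from other RNA was not tested.

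**Figure D4:**
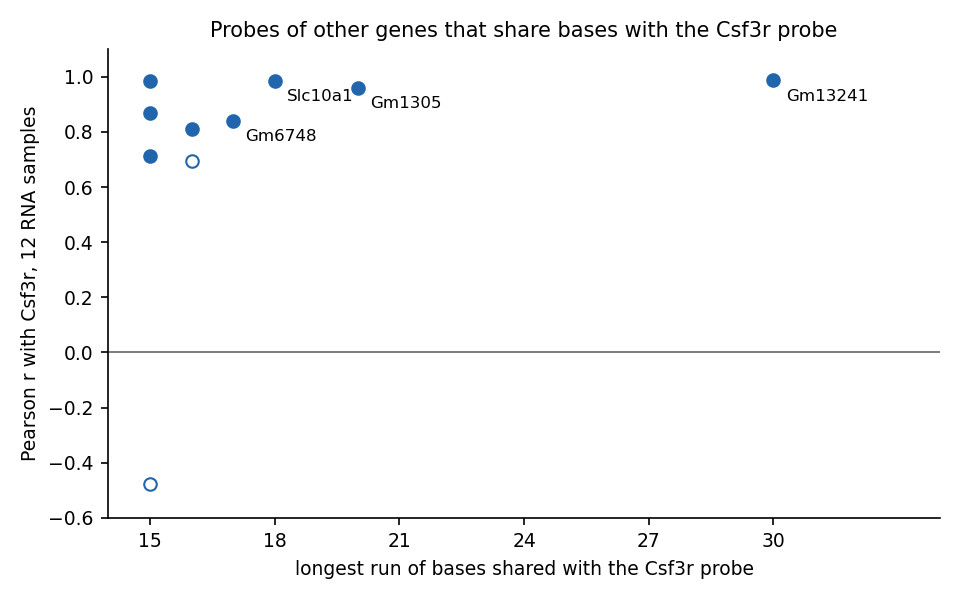
Pearson correlation over the 12 RNA samples between the Csf3r level and that of each of 10 probes of other genes (vertical axis), against the longest run of bases the probe shares with the Csf3r probe (horizontal axis). Open circles are probes that did not pass the filter on dim probes. Gm13241, with 30 shared bases, lay at 0.99, and 1 dim probe with 15 lay at -0.48.

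Csf2ra was lower at day 3 in 3 groups and stayed near its day 0 level in the fourth. Its log2 ratios were -0.19 and -0.01 in flox cells with tamoxifen, a change of -0.10 ± 0.07 that did not pass (limma adjusted p = 0.281). They were -0.86 and -0.67 in flox cells without it, -0.57 and -0.57 in control cells with tamoxifen and -0.97 and -0.94 in control cells without. The fall in control cells with tamoxifen did not pass with median centring (-0.23, limma adjusted p = 0.261). The flox arrays with tamoxifen lay above the other 6.

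Csf2rb, the beta chain shared by the GM-CSF, IL-3 and IL-5 receptors, was higher at day 3 in control cells. Its ratios were 0.79 and 0.29 with tamoxifen (0.54 ± 0.09, limma adjusted p = 0.0031) and 0.69 and 0.05 without (0.37 ± 0.09, limma adjusted p = 0.0153). In flox cells they were 0.01 and -0.24 with tamoxifen and 0.01 and -0.23 without, and neither passed. A second probe of the gene stood at 0.54 ± 0.08 in control cells with tamoxifen and 0.04 ± 0.08 in flox cells with it. The 2 calls in control cells were lost without array 1 of the group (0.48, limma adjusted p = 0.0689, with tamoxifen, and 0.21, 0.197, without). Mice have a second beta chain gene next to it, Csf2rb2, whose chain serves IL-3. The brightest Csf2rb probe and a Csf2rb2 probe are alike over 30 bases, shown here because RNA of one gene could pair with the probe of the other.
Csf2rb: ggcagatcaaAtgtCccttggtctCtgttc
Csf2rb2: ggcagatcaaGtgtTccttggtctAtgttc
Capitals mark the differing bases, which are A11G, C15T and C25A from Csf2rb to Csf2rb2, counted from 1 at the 5′ end. The stretches lie at chr15:78181197-78181226 on the plus strand and chr15:78113145-78113174 on the minus strand of mm9. On this probe Csf2rb2 had ratios of 0.52 and 0.46 in flox cells with tamoxifen and 0.05 and -0.04 in flox cells without it, where Csf2rb had 0.01 and -0.24, and 0.01 and -0.23. In control cells Csf2rb2 had 0.75 and 0.48 with tamoxifen and 0.72 and -0.08 without, where Csf2rb had 0.79 and 0.29, and 0.69 and 0.05. A second Csf2rb2 probe had 0.82 and 0.32 in flox cells with tamoxifen and 0.71 and 0.49 in those without. In control cells it had 1.39 and 1.11 with tamoxifen and 1.05 and 0.77 without. Whether RNA of one gene paired with the probe of the other was not tested.

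Il3ra, the alpha chain that binds IL-3, was above its day 0 level on all 8 arrays. Its ratios were 0.72 and 0.93 in flox cells with tamoxifen, 0.30 and 0.74 in flox cells without it, 0.60 and 0.60 in control cells with tamoxifen and 0.49 and 0.43 in control cells without. The changes of 0.82 ± 0.10, 0.52 ± 0.10, 0.60 ± 0.10 and 0.46 ± 0.10 all passed (limma adjusted p = 0.000722, 0.00513, 0.00292 and 0.00861). Outside flox cells with tamoxifen these calls were lost without 1 array: array 2 of flox cells without tamoxifen (0.33, limma adjusted p = 0.112), and array 1 of control cells with (0.50, 0.0707) or without it (0.32, 0.11). At day 0 the level was 12.72 and 12.46 in flox cells, against 13.12 and 12.99 in control cells, a difference of -0.46 ± 0.11 (limma adjusted p = 0.151).

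The ratios of the lymphoid receptors separated flox cells with tamoxifen from the rest. Il7r was 1.93-fold higher at day 3 there (0.95 ± 0.28, limma adjusted p = 0.0243), and without array 1 of the group the change was 0.60 (limma adjusted p = 0.302). With no replicate block that rise did not pass (limma adjusted p = 0.123), nor did the fall in control cells with tamoxifen (0.0509). It was lower in flox cells without tamoxifen (-1.80 ± 0.28), in control cells with tamoxifen (-1.29 ± 0.28) and in control cells without (-1.36 ± 0.28). The 2 experiments of control cells differed widely, at -2.09 and -0.50 with tamoxifen and -2.22 and -0.51 without, and so did their day 0 levels of 13.56 and 12.23. Without array 1 of the group the control changes were -0.88 with tamoxifen (limma adjusted p = 0.154) and -0.87 without (0.0933). Il2ra was at least 1.25-fold lower at day 3 in flox cells with tamoxifen (limma adjusted p = 0.00402), a call lost without array 1 (-0.55, 0.0509) or array 2 (-0.50, 0.0543) of the group. It was higher in the other groups, with ratios of 1.97 and 1.52 in flox cells without tamoxifen, 1.72 and 1.55 in control cells with it and 2.71 and 2.78 in control cells without. Those rises were 3.35-fold, 3.096-fold and 6.70-fold (limma adjusted p = 6.39e-05, 8.15e-05 and 2.02e-05).

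Csf1r, the receptor of CSF-1 itself, gave a different answer from each of its 3 probes. The brightest probe had log2 ratios of 0.17 and -0.58 in flox cells with tamoxifen, 0.13 and -0.58 in flox cells without it, 0.26 and -0.61 in control cells with tamoxifen and 0.25 and -0.44 in control cells without. In all 4 groups experiment 1 was above 0 and experiment 2, with the dyes inverted, below 0. The fitted changes were -0.21 ± 0.07 and -0.22 ± 0.07 in flox cells with and without tamoxifen (limma adjusted p = 0.0407 and 0.0338) and -0.17 ± 0.07 and -0.09 ± 0.07 in control cells (0.0779 and 0.295). Both flox calls were lost in 6 of the 8 fits that left out 1 array (limma adjusted p up to 0.254 with tamoxifen and 0.278 without). The second probe stood at 0.19 ± 0.10 and 0.25 ± 0.10 in flox cells with and without tamoxifen, and at 0.50 ± 0.10 and 0.57 ± 0.10 in control cells. The third stood at 1.05 ± 0.12, 1.05 ± 0.12, 1.18 ± 0.12 and 1.18 ± 0.12 in the same order, above 0 on all 8 arrays. So the direction of Csf1r over 3 days depends on the probe, and with the mean of its probes it was higher in all 4 groups (0.34 to 0.55).

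**Figure D5:**
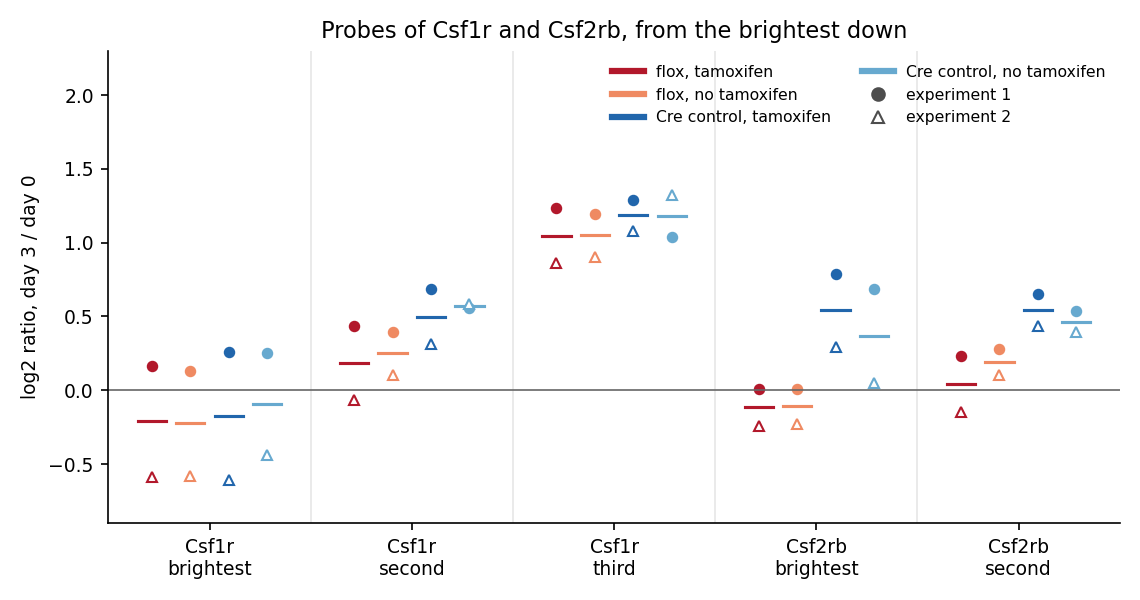
Log2 ratio of day 3 to day 0 RNA (vertical axis) for the 3 probes of Csf1r and the 2 probes of Csf2rb that passed the filter, from the brightest down, with filled circles for experiment 1, open triangles for experiment 2 and a short line at the mean. The brightest Csf1r probe lay above 0 in experiment 1 and below 0 in experiment 2, while the third lay above 0 on all 8 arrays.

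Between genotypes, with tamoxifen in both, 2 receptors were higher in flox cells and 4 lower, with 11.3% of all genes called. Il7r (2.24 ± 0.39, limma adjusted p = 0.0208) and Csf2ra (0.47 ± 0.10, 0.0381) were higher. Il2ra was at least 4.34-fold lower (0.00271), and the ratios of Csf2rb (-0.66 ± 0.13, 0.0298), Flt3 (-0.90 ± 0.17, 0.0244) and Kit (-1.01 ± 0.23, 0.0422) were lower. These compare ratios to each genotype's own day 0. With the day 3 channel alone Il7r, Csf2ra and Il2ra passed, while Csf2rb stood at -0.28 (limma adjusted p = 0.133), Flt3 at -0.21 (0.168) and Kit at -0.07 (0.641), and Kit was not well above background in either group, so that its ratios give only bounds. Over all alternatives to the ratio comparison the limma adjusted p ranged from 0.0173 to 0.232 for Csf2rb, 0.00361 to 0.18 for Flt3 and 0.000778 to 0.641 for Kit. The count was 0 without array 1 or array 2 of control cells with tamoxifen and 1 without array 1 or array 2 of flox cells with it. The Csf2ra call was also lost without either array of flox cells without tamoxifen (0.47, limma adjusted p = 0.0659) and with median centring (0.25, 0.652), and with no replicate block neither Il7r (limma adjusted p = 0.114) nor Csf2ra (0.108) passed.

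Without tamoxifen in either genotype 1 receptor passed, Il2ra, 2.00-fold lower in flox cells, and 2.87% of all genes were called. Its change was -0.998 ± 0.14 (limma adjusted p = 0.0377), with -0.74 and -1.26 in the experiments. The Il2ra call was lost in 7 of the 8 fits that left out 1 array, all but that without array 1 of control cells without tamoxifen (-1.17 to -0.82 over those 7, limma adjusted p = 0.0668 to 0.227). At an unadjusted p under 0.05 there were 4 receptors. The day 3 channel alone gave -1.35 for Il2ra (limma adjusted p = 0.0183) and -0.71 for Il7r (0.0282).

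The genes around the receptors were read from 6 lists, beside the 9.02% of all genes that tamoxifen changed in flox cells. Of 12 ligand genes 5 were measured, and 0 changed with tamoxifen in flox cells. Of 13 partner and related receptors 12 were measured, of which 1 rose and 2 fell with tamoxifen in flox cells. Il6st, the signalling chain of the IL-6 family, rose (0.82 ± 0.15). Il21r (-1.32 ± 0.19) and Il4ra (-0.77 ± 0.15), whose chains pair with the common gamma chain as IL7R does, fell. Il2rg, the common gamma chain itself, stood at 0.40 ± 0.09 (limma adjusted p = 0.05004). The brighter Csf2rb2 probe stood at 0.49 ± 0.19 (limma adjusted p = 0.173) and the other at -0.035 ± 0.11.

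Of 30 proximal signalling genes 1 rose and 2 fell with tamoxifen in flox cells, a share near the 9.02% of all genes, with a median of -0.05. The ubiquitin ligase gene Cblb rose (0.67 ± 0.14), and the SRC family kinase gene Lyn (-0.80 ± 0.12) was among those that fell. Of 15 feedback and STAT target genes 1 rose and 2 fell. Cish, a STAT5 target whose product restrains cytokine receptors, rose (1.11 ± 0.17), while the related inhibitor Socs1 (-1.13 ± 0.16) and the adaptor Dok2 (-0.60 ± 0.11) fell. Of 13 regulators of receptor genes 0 rose and 1 fell, the myeloid factor Cebpa (-0.49 ± 0.11). Of 4 genes of receptor shedding 0 passed, and Adam17, whose protease cuts CSF1R from the cell surface, stood at 0.58 ± 0.14 (limma adjusted p = 0.0605).

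The genes whose levels ran most like each receptor over the 12 RNA samples were found by Pearson correlation among 17919 genes, as a description. Il7r ran most like Gpnmb, a glycoprotein of macrophages (r = 0.97), Vsig10 and Slc30a4, a zinc transporter gene. Il2ra ran most like Slamf9 (r = 0.97), a receptor gene of the SLAM family. Kit ran most like the platelet collagen receptor gene Gp6 (r = 0.99), Ankrd22 and Mycn. Flt3 had Pgr and Sh2d5 and the mast cell protease gene Cpa3 nearest (r = 0.99, 0.98 and 0.98), and Csf2ra had Csrp1, Ddhd2 and Gstm2 (0.98, 0.98 and 0.98). Csf3r had Gm7378, Gm13241 and Cand1 nearest (r = 0.99, 0.99 and 0.99). The Gm13241 probe shares 30 bases with that of Csf3r, while Gm7378 and Cand1 are not among the 10 genes with a shared run. Csf1r, by its brightest probe, ran most like Rpl29-ps5 (r = 0.97), Gm12704 (0.95) and Rps20 (0.95). Over the 12 RNA samples the log2 level of Rpl29-ps5 was 17.60 to 18.08 and that of Csf1r 17.45 to 18.15. For Csf2rb and Il3ra the highest correlations were 0.90 and 0.96.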

How the data were processed

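Per the labels, 8 two-colour Agilent arrays (4 groups of 2) carried 12 cytoplasmic RNA samples, since each day 0 RNA sat on 2 arrays. Per the submitters' processing notes, the authors ran Agilent Feature Extraction 10.7.3.1; the deposited scanner files give spot intensity, background, flags and a log10 ratio, and name mm9. The deposited value table equals the log10 ratio turned to day 3 over day 0, to within 5e-10, with column medians of 0.

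Here, mean signals were background corrected (normexp, offset 50) and loess normalized, with control spots at weight 0, flagged outlier spots left out and ratios turned for the dye swap. Probes well above background on both arrays of a group in a channel were kept (22407 of 39429), and the brightest stood for its gene (18004 genes, 26412 probes named through RefSeq). limma 3.58.1 (R 4.3.3) fitted 4 group means and the experiment, with Benjamini-Hochberg adjustment over all genes. The 10th comparison, day 0 flox against control, used single-channel levels (Aquantile) of the 12 RNA samples with dye and experiment terms. Where a gene has a missing value the fit drops that array; no receptor had one. The number of arrays limits the precision. The p-values measure the spread left between arrays once the experiment term took up the difference shared by the 2 experiments. Same-numbered arrays deviated together (r = 0.31 to 0.73) and come from the same biological experiment by the series' design text, so the experiment block is the main fit. A bound takes, on each array, the higher of the dim probe and the dimmest probe well above background. The receptors, gene lists and marker lists were chosen with earlier results of these data known; all 9 receptors are named, with up to 4 genes of smallest p per list, paralogues and probes that share bases. Some genes of these lists are counted but not reported by name here.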

Additional observations from a re-analysis of the deposited data

How the results depend on the processing

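The replicate numbers mark the 2 biological experiments of the series' design text. The counts in this section are of receptors alone. The share of all genes called in each setting is not reported here, so a changed count cannot be read as particular to the receptors. With no replicate block the count of receptors called between genotypes with tamoxifen was 1, against 6 with the block; without tamoxifen it was 0 and at day 0 it was 0, against 1 with the block in each; tamoxifen in flox cells gave 2, against 3, and Il7r was the receptor lost. The difference of the tamoxifen changes, 0 in the main setting, gave 2 with median centring, 1 with no background correction, 1 with Agilent's processed log ratios, 1 with no filter on dim probes, 2 where arrays that share a day 0 sample were a random block and 1 with the day 3 channel alone. Tamoxifen in control cells gave 1 with median centring. Between genotypes with tamoxifen the count was 3 with Agilent's processed log ratios, 3 with a strict filter on dim probes, 3 with the day 3 channel alone and 3 with a log2 change of at least 1. Without tamoxifen it was 2 with median centring, with scale normalization or with the day 3 channel alone, and 0 with Agilent's processed log ratios, the strict filter, the compared arrays alone or a log2 change of at least 1. At day 0 it was 2 with no normalization between arrays, which moved the median of all genes to 0.13, and 0 with no filter, the strict filter, the 4 day 0 RNA samples alone or a log2 change of at least 1. For day 3 against day 0 the strict filter, which tests 6 receptors and drops Kit, Flt3 and Il2ra, gave 4 in flox cells with tamoxifen and 5 in each other group. A log2 change of at least 1 gave 3 in flox cells with tamoxifen, 5 in flox cells without it and 3 in each control group.

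Leaving out 1 replicate at a time gave 1 to 3 for tamoxifen in flox cells, 0 to 0 for tamoxifen in control cells and 0 to 1 for their difference. It gave 0 to 6 between genotypes with tamoxifen, 0 to 1 without and 0 to 1 at day 0. Day 3 against day 0 gave 4 to 7 in flox cells with tamoxifen, 6 to 8 in flox cells without it, 5 to 8 in control cells with tamoxifen and 4 to 8 in control cells without. Csf1r turned positive with the mean of its kept probes, at 0.34 and 0.36 in flox cells with and without tamoxifen and 0.50 and 0.55 in control cells, and with median centring in flox cells without tamoxifen, at 0.089. These causes were not tested, apart from the fewer receptors or samples some settings hold. The fit of all kept probes, chosen after seeing the data, left each count within 1.5 times its main value. The compared arrays alone leave day 3 against day 0 no residual degrees of freedom, so that setting was not run there. Signal near background limits Kit, Flt3 and Il2ra.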
